A study of Mus musculus with 21 samples.

Results

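BMH-21 and CX-5461 are small molecules that block RNA polymerase I, the enzyme that copies ribosomal DNA into the rRNA precursor. The comparison described here set the 2 compounds directly against each other in mouse embryonic stem cells at 8 h of exposure. It covered 6 of the study's 21 libraries, 3 with BMH-21 and 3 with CX-5461, and 14666 of the 20900 genes in the deposited table. Genes entered the comparison if 3 or more of the 21 deposited values exceeded 0 on the log2 scale; the other 6234 genes were below that limit. The gene just inside the limit, 4932412D23Rik, had a third-highest value of 9e-04, and the gene just outside it, Spdye4b, one of -0.006.

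The cells were E14, a line of 129 strain embryonic stem cells, grown in serum with leukaemia inhibitory factor (LIF), which holds them in the pluripotent state. Each compound was given at 1 µM in fresh medium, and poly(A) RNA was taken at 2, 4 and 8 h. Untreated cells (0 h) were the common control for both compounds, and the labels give no untreated culture kept in fresh medium for 8 h. All 7 groups shared the line and the LIF medium, and each had 3 replicates. The labels do not say whether replicates came from separate cultures, so p-values measure only the spread between these libraries. They name no batch.

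BMH-21 is known as a DNA intercalator that leads to loss of the catalytic subunit of RNA polymerase I. CX-5461 is known to hold the polymerase at the rDNA promoter, and has also been described as a topoisomerase poison. When ribosome synthesis stops, free ribosomal proteins bind MDM2 and release p53, so stabilised p53 is the textbook response to either kind of block. Embryonic stem cells add features of their own: a pluripotency network that LIF holds and FGF signalling opposes, and a rare state with transcripts of the 2-cell embryo.

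Levels below are log2 values from which the median of the tested genes in the same library was subtracted, called centred levels, so that 0 is the median gene of that library. A difference is the mean of the 3 BMH-21 libraries minus the mean of the 3 CX-5461 libraries at 8 h. A difference of 1 is a 2-fold change. Errors are standard errors from limma's linear model, and adjusted p-values are Benjamini-Hochberg values over the 14666 genes, with calls made under 0.05. Centring matters here because the authors' scaling put the BMH-21 libraries lower than the CX-5461 libraries. The median difference over all genes was -0.48 as deposited and -0.06 after centring, a shift of -0.43, and differences on the deposited scale are given beside the centred ones where the call or the direction depends on it.

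The libraries held 46604397 to 62812641 reads, and the 10 most abundant genes took 4.23% to 5.57% of them. All replicate pairs at 8 h differed by more than sampling noise. BMH-21 replicate 2 stood apart from the other two, where the chi-square divided by its degrees of freedom was 26 and 24.6 against 4.93 between replicates 1 and 3, while the CX-5461 pairs lay between 6.46 and 16.4. Without that library 10453 genes were called in place of 10513, and the call counts of the gene lists below moved by at most 2 genes, except for cholesterol synthesis and cytosolic ribosomal protein genes, where both counts are given. The stem cell genes Pou5f1 and Sox2 were among the abundant transcripts in every library at 8 h, with 50599 to 71763 and 17945 to 32048 reads.

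Of the 14666 genes, 10513 (71.7%) differed between the inhibitors at 8 h. BMH-21 gave the higher value for 4559 (31.1%) and the lower value for 5954 (40.6%). Differences of at least 2-fold leaned the other way, with 1236 genes higher with BMH-21 (8.43%) and 663 lower (4.52%). As deposited, without centring, 11615 genes (79.2%) were called, 1754 higher (12%) and 9861 lower (67.2%). On both scales 1754 genes (12%) were called higher and 5954 (40.6%) lower, and 467 (3.18%) were called in opposite directions. The 1754 are all genes called higher as deposited, and the 5954 all genes called lower after centring. The 3 values of one group lay entirely above those of the other for 4629 genes in the BMH-21 direction (31.6%) and 5922 in the CX-5461 direction (40.4%). For 2862 genes (19.5%) the 95% interval of the difference lay within 0.25 of 0, which places these genes close in level on the centred scale. As deposited the interval lay within that range for 179 genes (1.22%). The scales differ by the same shift of -0.43 for every gene, so hardly any gene could meet it on both, and 0 did.

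**Figure D1:**
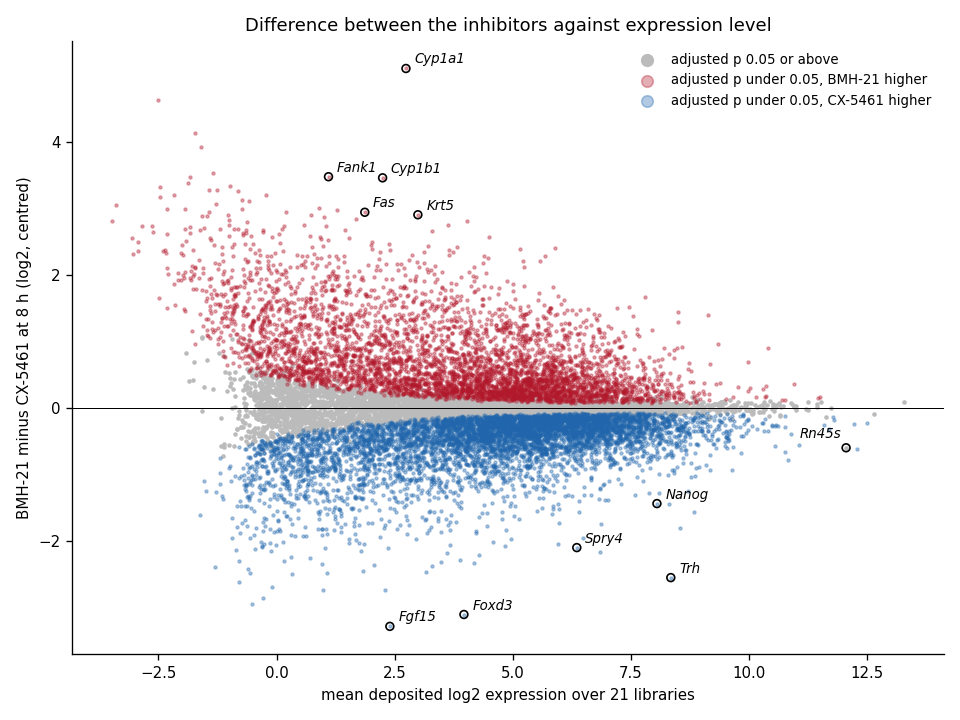
Each point is a gene, placed by its mean deposited log2 expression over 21 libraries (x axis) and by the centred log2 difference between BMH-21 and CX-5461 at 8 h (y axis); colours mark the direction of genes with an adjusted p under 0.05. Cyp1a1 lies highest of the labelled genes at 5.10 and Fgf15 lowest at -3.29, while the abundant rRNA precursor Rn45s at -0.60 was not called.

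The 3 genes that mark this comparison are Fank1 on the BMH-21 side and Fgf15 and Foxd3 on the CX-5461 side. Fank1, a gene best known from the testis (chr7:133776836-133881536, GRCm38.p6), had centred levels of 0.54, 0.71 and 0.82 with BMH-21 and of -2.87, -2.78 and -2.69 with CX-5461. The BMH-21 libraries were all high and did not approach the others, a difference of 3.47 ± 0.15 or 11.1-fold (adjusted p = 2.42e-15). Untreated cells had 26 to 32 reads, so both compounds raised the gene, by 5.85 and 2.38. Fgf15, a secreted fibroblast growth factor (chr7:144896532-144900953), was at -4.01, -3.80 and -4.16 with BMH-21 and at -0.76, -0.53 and -0.82 with CX-5461. This is 69 to 105 reads against 620 to 882, a difference of -3.29 ± 0.12 or 9.78-fold, and the CX-5461 mean of -0.70 was close to the untreated -0.66 (difference -0.04, adjusted p = 0.78). Foxd3, a forkhead repressor needed by pluripotent and neural crest cells (chr4:99656299-99658671), had levels of -1.98, -2.42 and -2.33 with BMH-21 and of 1.00, 0.73 and 0.87 with CX-5461. Its difference was -3.11 ± 0.09, and untreated cells stood at 1.67, above both groups.

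The 10 largest differences in each direction were taken among genes called the same way on both scales, without overlap on either. Their mean deposited log2 value over the 21 libraries also had to be at least 0. Genes with a lower mean were left out, such as Fgf5, with a difference of -2.86 and a mean of -0.29. The 10 on the BMH-21 side had 1 to 57 reads in each untreated library. Krt5, a keratin of basal epithelial cells (chr15:101707069-101712905), was at 2.77, 2.96 and 3.13 with BMH-21 and at -0.11, 0.12 and 0.14 with CX-5461, from 10 to 18 reads in untreated cells. Fas, the death receptor gene (chr19:34290647-34327775), was at 0.28, 0.58 and 0.50 against -2.62, -2.34 and -2.51, a difference of 2.94 ± 0.19. In both genes the CX-5461 libraries were far above untreated cells but well below every BMH-21 library. Dock8, a guanine nucleotide exchange factor, differed by 3.01 ± 0.22, and Zhx2, a zinc finger and homeobox repressor, by 2.97 ± 0.18. Mab21l2 (2.94), Klhl30 (2.89) and Art4 (2.88) began from 1 to 8 reads in untreated cells, so that their levels against control rest on very few reads, while the 8 h libraries held 377 to 1445 reads under BMH-21 and 37 to 183 under CX-5461. Cyp1a1 (5.10) and Cyp1b1 (3.46), also on this side, are described with their pathway.

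Among the 10 genes chosen in the same way on the other side, Trh, which encodes the precursor of thyrotropin-releasing hormone (chr6:92242061-92244650), was the most abundant. It was at 2.28, 2.15 and 2.07 with BMH-21 and at 4.70, 4.71 and 4.76 with CX-5461, or 5211 to 6528 reads against 29670 to 33626. Its difference was -2.56 ± 0.05, and the untreated level of 4.37 lay between the groups. Prdm14, a factor of naive pluripotency and germ cells, differed by -2.47 ± 0.10. It was at -2.23, -2.51 and -2.81 with BMH-21 and at -0.05, -0.01 and -0.06 with CX-5461, where the level before treatment was 0.25. Gbp4, an interferon-inducible GTPase, differed by -2.74 ± 0.08, and B3galnt1, a glycosyltransferase, by -2.46 ± 0.09. En1, a homeobox factor of the midbrain, was at -4.81 with BMH-21 and at -2.33 with CX-5461 on average, against -2.52 before treatment. Rnf207 (-2.51) and the uncharacterised AI118078 (-2.75) had 11 to 28 reads in the BMH-21 libraries, and Bmp4 (-2.38) is taken up with its pathway.

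**Figure D2:**
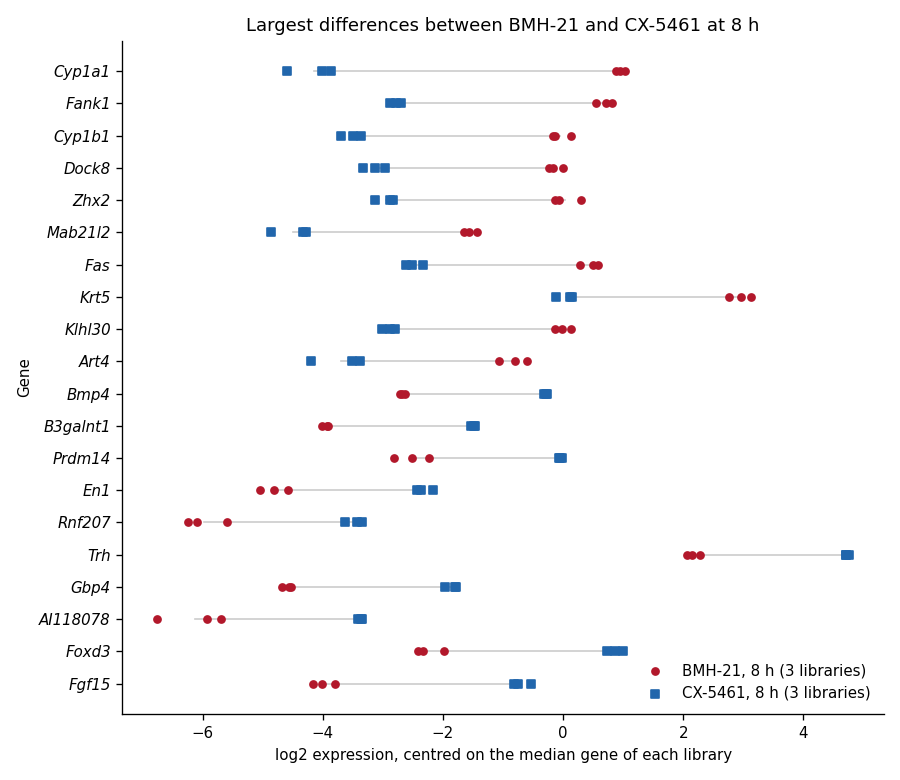
Centred log2 level (x axis) of 10 genes in each direction (y axis), with 1 point for each of the 3 libraries of BMH-21 (circles) and CX-5461 (squares) at 8 h and a line joining the means. They had the largest differences among genes called on both scales with no overlap and a mean deposited log2 value of at least 0. The 2 groups of points are separate for all 20 genes, as the rule for choosing them required, and Krt5 and Trh sit at the highest levels.

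Libraries taken at 4 h are separate from those above and give the same comparison earlier in exposure. At 4 h 6719 genes (45.8%) differed, 4012 higher with BMH-21 (27.4%) and 2707 lower (18.5%). As deposited 2617 genes (17.8%) were called, 1372 higher (9.35%) and 1245 lower (8.49%). Where the 4 h counts of a list are given below, they are on both scales. Of the 10 genes chosen above in each direction, 9 on the BMH-21 side and 8 on the CX-5461 side were called in the same direction at 4 h after centring. Art4 (0.39), AI118078 (-0.41) and Gbp4 (0.00) were not past the threshold at that time. As deposited, Mab21l2 (0.48, adjusted p = 0.136) and Trh (-0.27, adjusted p = 0.0535) were not called at 4 h either. Across all genes the 8 h and 4 h differences had a Pearson correlation of 0.37, a description over genes, which are not independent replicates. The change of the difference from 4 to 8 h was itself tested and was called for 8824 genes (60.2%). For genes named because of a large 8 h difference, growth was favoured in advance, since that difference is part of the contrast. Their p-values for the change, here and below, are descriptions only. Gbp4, one of the genes chosen in this way, is an example: both compounds gave a level of -2.50 at 4 h, and then BMH-21 went to -4.59 and CX-5461 to -1.85. Foxd3 had separated already at 4 h, at -2.90 with BMH-21 and -0.27 with CX-5461.

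**Figure D3:**
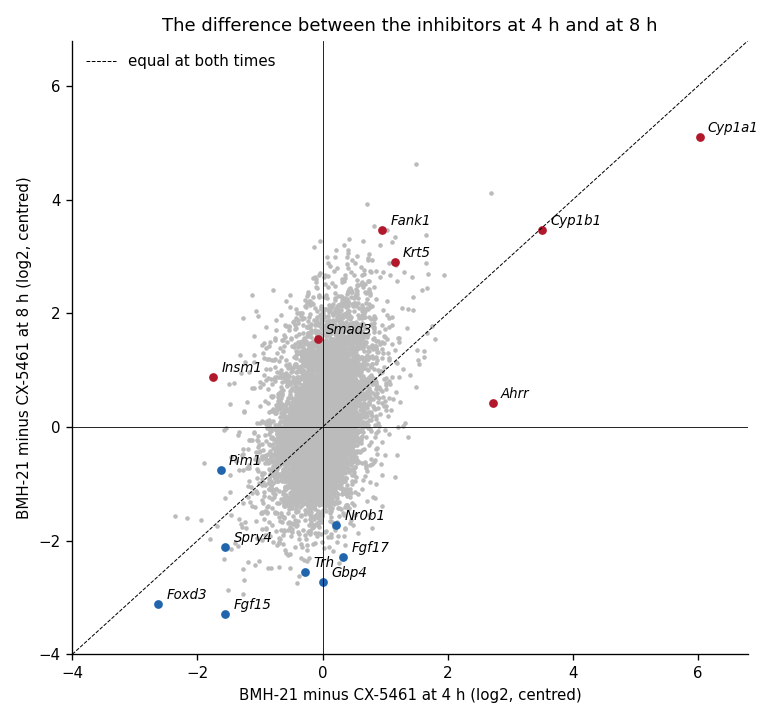
Each point is a gene, with the centred log2 difference between BMH-21 and CX-5461 at 4 h on the x axis and at 8 h on the y axis; the dashed line marks equal differences. Cyp1b1 lies on the line at 3.50 and 3.46, Fank1 and Krt5 lie well above it, and Ahrr, at 2.72 and 0.43, lies below it.

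The aryl hydrocarbon receptor (AHR) is a ligand-activated transcription factor. With its partner ARNT it binds a short DNA element whose core is GCGTG and turns on cytochrome P450 genes, together with its own repressors. Of the 12 genes listed for this pathway 10 were tested, and 9 were higher with BMH-21 and 1 lower, against 31.1% and 40.6% of all genes. The list median was 0.74 after centring and 0.31 as deposited, and the median of all genes was -0.06 and -0.48. As deposited 5 were called higher and 1 lower, where 12% and 67.2% of all genes were. At 4 h, 9 were higher (90%, against 27.4% of all genes) and 0 lower (against 18.5%). As deposited 8 were higher and 0 lower at 4 h, against 9.35% and 8.49% of all genes. The 250 bases before the RefSeq start site of 4 of these genes are shown because the genes were called higher with BMH-21 at both 4 and 8 h after centring and their windows hold the core, which is in capitals on either strand (GCGTG or its complement CACGC). They read, 5′ to 3′ in the direction of the gene, GRCm38.p6, chr9:57697363-57697612 (plus strand), chr17:79715062-79715311 (minus), chr3:65528197-65528446 (plus) and chr13:74292332-74292581 (minus):
Cyp1a1: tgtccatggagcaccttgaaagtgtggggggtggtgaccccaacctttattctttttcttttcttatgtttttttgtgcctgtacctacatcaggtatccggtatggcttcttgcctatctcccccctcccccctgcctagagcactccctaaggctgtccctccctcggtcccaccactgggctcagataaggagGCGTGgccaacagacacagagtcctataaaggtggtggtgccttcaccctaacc
Cyp1b1: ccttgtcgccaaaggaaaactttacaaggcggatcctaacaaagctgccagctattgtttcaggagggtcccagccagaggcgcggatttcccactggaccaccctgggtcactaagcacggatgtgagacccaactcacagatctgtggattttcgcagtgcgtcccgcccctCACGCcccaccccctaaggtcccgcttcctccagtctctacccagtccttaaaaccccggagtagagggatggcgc
Tiparp: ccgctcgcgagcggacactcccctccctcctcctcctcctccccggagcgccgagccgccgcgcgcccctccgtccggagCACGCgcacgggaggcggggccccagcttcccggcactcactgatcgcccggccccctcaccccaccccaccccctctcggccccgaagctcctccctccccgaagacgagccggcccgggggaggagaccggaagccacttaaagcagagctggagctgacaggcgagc
Ahrr: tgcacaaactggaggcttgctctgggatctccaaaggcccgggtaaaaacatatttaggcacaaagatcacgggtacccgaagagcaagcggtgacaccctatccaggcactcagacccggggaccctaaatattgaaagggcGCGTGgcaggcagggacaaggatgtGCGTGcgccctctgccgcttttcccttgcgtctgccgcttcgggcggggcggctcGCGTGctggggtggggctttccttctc
The core began 54 bases before the start in Cyp1a1, 76 in Cyp1b1 and 170 in Tiparp, and it occurred 3 times in Ahrr. It is a common run of letters: 44.5% of the 11000 promoters of tested genes held it, against 34.4% of the 905 of genes at least 2-fold higher with BMH-21. The longer form TNGCGTG, which contains the core, was in 6.56% of all promoters and 4.31% of those 905, and among the 4 shown it was in Ahrr alone. Of the 7 list genes with a window in the table, 5 held the core. Beside the 4 shown it was in Arnt, the member lower with BMH-21, where it began 29 bases before the start. Neither form was in the windows of Cyp1a2 and Nqo1, both called higher. The start site used for the Cyp1a1 window lies inside the span of that gene, which begins at chr9:57687928.

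Cyp1a1, the classic AHR-induced cytochrome P450 (chr9:57687928-57703824), showed the largest difference of the 14666 genes tested. It was at 0.88, 1.03 and 0.94 in the BMH-21 libraries and at -4.01, -3.87 and -4.59 in those of CX-5461, which is 2190 to 2986 reads against 45 to 87. The difference was 5.10 ± 0.16 or 34.4-fold (adjusted p = 6.86e-18). The CX-5461 libraries overlapped the untreated ones, which ran from -4.97 to -4.16, although their mean was called higher, by 0.42 (adjusted p = 0.0201 in limma). Over time the BMH-21 mean went from 3.00 at 2 h to 1.77 at 4 h and 0.95 at 8 h, while CX-5461 stayed between -4.25 and -4.15. Cyp1b1, a related P450 (chr17:79706940-79715061), was at -0.14, -0.16 and 0.13 against -3.50, -3.36 and -3.69, a difference of 3.46 ± 0.13. With CX-5461 it stood 1.26 above the untreated -4.78 (adjusted p = 1.31e-08 in limma). Cyp1a2 differed by 1.77 ± 0.10, with 435 to 542 reads against 114 to 143. Tiparp, which modifies AHR by ADP-ribosylation and restrains it, was at 2.54, 2.39 and 2.59 against 1.35, 1.29 and 1.36, and all BMH-21 values were above all others. The receptor gene Ahr itself differed by 0.56 ± 0.08 (0.13 and not called as deposited), and Arnt was the member on the other side at -0.55 ± 0.05. Nqo1, an oxidoreductase that NRF2 also controls, differed by 0.40 centred and -0.03 as deposited.

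Ahrr, the AHR repressor, fell with time under BMH-21 as Cyp1a1 did, but it came near its untreated level. With BMH-21 it stood at -1.50 at 2 h, -2.77 at 4 h and -4.41 at 8 h, near the untreated -5.04, and CX-5461 gave -5.03, -5.49 and -4.83. Its difference fell from 2.72 at 4 h to 0.43 ± 0.15 at 8 h, a change of -2.29 (adjusted p = 3.11e-09). The 8 h difference was called (adjusted p = 0.0129) but rests on few reads, 49 to 72 against 38 to 47. It was 0.00 as deposited, and its adjusted p was 0.0527 without BMH-21 replicate 3 and 0.0778 without CX-5461 replicate 2.

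**Figure D4:**
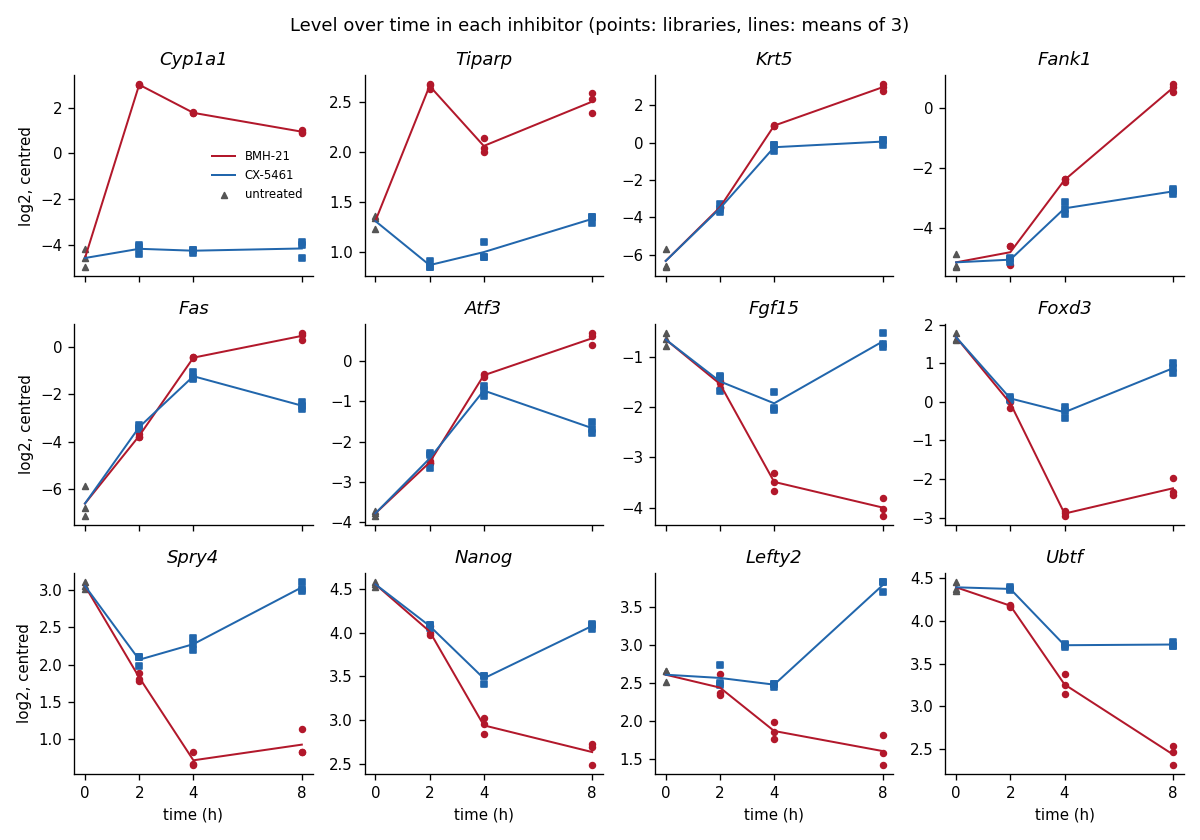
Centred log2 level (y axis, a separate scale in each panel) of 12 genes against time in hours (x axis), with a point for each library and lines through the means of 3; triangles are untreated cells, circles BMH-21 and squares CX-5461. Cyp1a1 and Tiparp peak at 2 h with BMH-21, and for Fas, Atf3, Fgf15 and Nanog the CX-5461 line turns back toward the untreated level after its early change while the BMH-21 line does not.

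The p53 list held targets and regulators of p53, and 32 of its 33 genes were tested. With BMH-21 23 were higher (71.9%, against 31.1% of all genes), 3 lower (9.38%, against 40.6%) and 6 were not called. The list median was 0.56 after centring. As deposited the median was 0.14, with 12 higher and 10 lower (12% and 67.2% of all genes), so the count on the lower side depends on the scaling. At 4 h 15 were higher (46.9%, against 27.4% of all genes) and 2 lower (6.25%, against 18.5%). As deposited the 4 h counts were 11 and 2, against 9.35% and 8.49% of all genes. Against untreated cells, which both comparisons share, the list median was 1.50 for BMH-21 and 0.80 for CX-5461. Beside Fas, the largest members were Pmaip1, which encodes the pro-apoptotic protein NOXA, and Trp53inp1, a stress-induced p53 partner. Pmaip1 was at 1.80, 1.92 and 2.05 with BMH-21 and at 0.46, 0.37 and 0.46 with CX-5461, a difference of 1.50 ± 0.06, and untreated cells stood at -1.37. Trp53inp1 was at 5.31, 5.14 and 5.42 against 3.89, 3.79 and 3.89, a difference of 1.43 ± 0.06, with 47079 to 53136 reads in the BMH-21 libraries. No value of one group reached the other for either gene. Epha2, a receptor tyrosine kinase, went the other way at -0.76 ± 0.04, as did the kinase gene Plk3 at -0.50 ± 0.04. At 8 h Epha2 with BMH-21 (2.44) was just below the untreated 2.60 and with CX-5461 (3.21) above it.

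Fas shows how the groups came apart. Both compounds had raised it by 4 h, to -0.46 with BMH-21 and -1.25 with CX-5461, from -6.61 in untreated cells. BMH-21 then reached 0.45 at 8 h, and CX-5461 was back at -2.49. The difference grew by 2.16 between the 2 times (adjusted p = 3.25e-07 in limma). Fas was named for its large 8 h difference, which is part of that contrast, so the p-value is a description only.

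Genes of the 2-cell embryo include Dux, a homeobox factor that opens this programme, and the Zscan4 cluster it turns on. Of 23 listed genes 19 were tested, and 14 were higher with BMH-21 (73.7%, against 31.1% of all genes), 0 lower and 5 not called. The median was 0.57 centred and 0.14 as deposited, where 8 were higher and 0 lower (12% and 67.2% of all genes). Dux was at -2.07, -1.80 and -1.54 with BMH-21 and at -3.67, -3.58 and -3.58 with CX-5461, or 282 to 428 reads against 91 to 106, from 3 to 11 in untreated cells. Its difference of 1.81 ± 0.32 (adjusted p = 2.16e-05) had the widest error among the named genes of this list that were called. Zscan4c was at 0.15, 0.26 and 0.51 against -1.21, -1.02 and -0.82, a difference of 1.32 ± 0.12. The groups were separate for both genes. The other 4 cluster members Zscan4a, Zscan4b, Zscan4d and Zscan4f differed by 1.32 to 1.55. B020031M17Rik differed by 0.46 ± 0.30 and was not called (adjusted p = 0.166). At 4 h 5 of the 19 (26.3%) were called higher with BMH-21 and 0 lower, a share close to the 27.4% of all genes. As deposited 3 were called higher at 4 h, where 9.35% of all genes were. For Dux the difference was 0.64 and not past the threshold (adjusted p = 0.102). Dux, Zscan4 and several other members have near-identical copies. How reads that match several copies were counted is not given in the sources used here, so their values are uncertain gene by gene.

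Pluripotency factors stood lower with BMH-21. The list held 23 core and naive factors, of which 1 was higher, 19 were lower (82.6%, against 40.6% of all genes) and 3 were not called, with a median of -0.62 after centring. As deposited 22 were lower, where 67.2% of all genes were, 0 were higher, and the median was -1.05. At 4 h 5 of the same list were higher (21.7%, against 27.4% of all genes) and 7 lower (30.4%, against 18.5%), with a median of -0.06. As deposited 2 were higher and 6 lower at 4 h, where 9.35% and 8.49% of all genes were. Nanog was at 2.69, 2.73 and 2.49 with BMH-21 and at 4.09, 4.04 and 4.10 with CX-5461, or 6973 to 9745 reads against 18749 to 22027. The groups did not overlap, and the difference was -1.44 ± 0.05, against -0.54 at 4 h. Zfp42, the marker also called Rex1, was at 3.67, 3.62 and 3.46 against 4.67, 4.62 and 4.58, a difference of -1.04 ± 0.05. Esrrb, a nuclear receptor of the naive network, differed by -1.11 ± 0.04, although both compounds had brought it to about the same level at 4 h, 3.01 and 2.99. Sall4 differed by -0.72 ± 0.05 and Sox2 by -0.63 ± 0.05. Among the called core factors named here, Pou5f1 showed the smallest difference, -0.16 ± 0.05 (adjusted p = 0.00337). It was at 5.41, 5.61 and 5.43 with BMH-21 and at 5.64, 5.66 and 5.65 with CX-5461.

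The nuclear receptor genes Nr5a2 and Nr0b1, both regulators of the naive network, differed by -1.97 ± 0.06 and -1.73 ± 0.07. Nr0b1 was at -0.36, -0.59 and -0.82 with BMH-21 and at 1.22, 1.11 and 1.08 with CX-5461. At 4 h its difference had the opposite sign, 0.22 ± 0.07 (adjusted p = 0.0125), and as deposited this 4 h difference was not called (adjusted p = 0.155). Klf5, a Krüppel-like factor, was the list member called higher, at 0.35 ± 0.07, and as deposited it was at -0.08 and not called. Dppa3, which protects methylation in the early embryo, was not called at -0.09 ± 0.09, with a 95% interval of -0.27 to 0.09. It was at -0.20, 0.25 and -0.25 with BMH-21, where replicate 2 was the high one, and without that library the difference was -0.25 (adjusted p = 0.000957). As deposited it was -0.52 and called.

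Factors of the formative, primed and early neural states lay lowest of all lists. Of 24 listed genes 21 were tested, and 18 were lower with BMH-21 (85.7%, against 40.6% of all genes). Of the rest 1 was higher (4.76%, against 31.1%) and 2 were not called. The median was -1.22 centred and -1.65 as deposited. At 4 h 11 were lower (52.4%, against 18.5% of all genes) and 4 higher (19%, against 27.4%). As deposited the 4 h counts were 11 lower and 1 higher, against 8.49% and 9.35% of all genes. Besides Foxd3, Fgf5, the growth factor that marks formative cells, was at -6.17, -6.16 and -6.24 with BMH-21, with 16 to 20 reads, and at -3.22, -3.07 and -3.68 with CX-5461, with 85 to 151 reads. The difference was -2.86 ± 0.20, and untreated cells stood between at -3.74. Pax8, a paired box factor, was at -5.24, -5.41 and -4.87 against -2.92, -2.72 and -2.79, a difference of -2.37 ± 0.11. At 4 h Pax8 had not differed past the threshold (-0.24, adjusted p = 0.078). Insm1, a zinc finger factor of neuroendocrine cells, was the called exception at 0.88 ± 0.12. It had been lower with BMH-21 at 4 h by -1.75 (adjusted p = 9.83e-11), so its difference changed sign, by 2.62.

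FGF signalling through ERK drives stem cells out of the naive state, and its output is read in feedback genes such as the Sprouty family. The list held 25 ligands, receptors, feedback genes and targets, and 24 were tested. With BMH-21 15 were lower (62.5%, against 40.6% of all genes), 5 higher (20.8%, against 31.1%) and 4 not called. The median was -0.45 centred and -0.88 as deposited, where 20 were lower and 2 higher (67.2% and 12% of all genes). At 4 h 10 were lower (41.7%, against 18.5% of all genes) and 9 higher (37.5%, against 27.4%). As deposited the 4 h counts were 8 lower and 3 higher, against 8.49% and 9.35% of all genes. Among the ligands, Fgf17 was at -3.04, -3.06 and -2.83 with BMH-21 and at -0.70, -0.61 and -0.73 with CX-5461. Its difference of -2.29 ± 0.08 was absent at 4 h, where it was 0.33 in the other direction (adjusted p = 0.00181). Of the receptors, Fgfr4 was higher with BMH-21 by 1.45 ± 0.08. Spry4, a feedback inhibitor, was at 1.14, 0.82 and 0.82 against 3.01, 2.98 and 3.11, a difference of -2.10 ± 0.07. The CX-5461 mean of 3.03 was that of untreated cells, 3.05, after 2.07 at 2 h and 2.27 at 4 h. Fosl1, an AP-1 subunit that ERK stabilises, was higher with BMH-21 by 1.92 ± 0.21, against 6 to 14 reads in untreated cells.

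Nodal, a TGF-beta family ligand, acts through SMAD2 and SMAD3 and induces its own inhibitors, Lefty1 and Lefty2. Of 16 listed genes 15 were tested, with 10 lower (66.7%, against 40.6% of all genes), 2 higher (13.3%, against 31.1%) and 3 not called. The median was -0.41 centred and -0.84 as deposited, where 13 were lower and 1 higher (67.2% and 12% of all genes). The ligand gene Nodal was close in both groups. It was at 2.42, 2.49 and 2.31 with BMH-21 and at 2.36, 2.41 and 2.41 with CX-5461, a difference of 0.02 ± 0.04 with a 95% interval of -0.07 to 0.10. As deposited it was -0.41 and called (adjusted p = 0.00023). The inhibitors did differ. Lefty1 was at 1.94, 1.87 and 1.47 against 3.77, 3.64 and 3.76, a difference of -1.96 ± 0.09, and Lefty2 at 1.81, 1.58 and 1.42 against 3.82, 3.69 and 3.83, a difference of -2.17 ± 0.08. For Lefty1 the BMH-21 mean of 1.76 was close to the untreated 1.68, and CX-5461 was the group that moved, by 2.04. For Lefty2 the groups moved to opposite sides of the untreated 2.61. Smad3, the transducer, was higher with BMH-21 by 1.54 ± 0.07, although both compounds had given about the same level at 4 h, 0.97 and 1.05.

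In the BMP list, 16 of 16 genes were tested, with 7 lower (43.8%), 4 higher (25%) and 5 not called. The lower share was close to the 40.6% of all genes, and the higher share was below their 31.1%. The median was -0.18 centred and -0.61 as deposited. The ligands split. Bmp4, which supports self-renewal together with LIF, was at -2.63, -2.71 and -2.68 with BMH-21 and at -0.26, -0.32 and -0.29 with CX-5461, a difference of -2.38 ± 0.10. Bmp7 was at 0.86, 0.85 and 0.93 against -0.66, -0.67 and -0.62, a difference of 1.53 ± 0.07, and both compounds stood above the untreated -2.70. The groups were separate in both genes. In the WNT list 15 of 16 genes were tested and 7 were lower (46.7%), 5 higher (33.3%) and 3 not called, shares close to the 40.6% and 31.1% of all genes, with a median of 0.00 centred and -0.43 as deposited. Notum, an enzyme that inactivates WNT ligands, differed by -2.03 ± 0.07 after equal levels of 0.14 and 0.15 at 4 h. Lef1, a nuclear partner of beta-catenin, differed by -1.20 ± 0.11, and Nkd1, a feedback inhibitor, by 0.94 ± 0.11 in the other direction.

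The LIF and STAT3 list (12 tested) had 6 lower (50%), 4 higher (33.3%) and 2 not called, against 40.6% lower and 31.1% higher of all genes. Its median was -0.15 centred and -0.57 as deposited. Bcl3, a nuclear IκB protein, differed by -1.09 ± 0.05, and at 4 h it had been higher with BMH-21 by 0.39. Pim1, a STAT3-induced kinase, differed by -0.75 ± 0.06, less than the -1.63 ± 0.06 of 4 h. Junb was higher with BMH-21 by 0.72 ± 0.06. In the MYC network (12 tested) 8 were lower (66.7%), 2 higher (16.7%) and 2 not called, median -0.31 centred and -0.74 as deposited. Myc was at 0.62, 0.66 and 0.62 with BMH-21 and at 1.44, 1.38 and 1.31 with CX-5461, a difference of -0.74 ± 0.04. Its antagonist Mxd1 was higher with BMH-21 by 0.98 ± 0.07, and the related Mxd3 was lower by -0.82 ± 0.08. At 4 h Myc had stood at 1.51 and 1.50, so that its separation came between 4 and 8 h, a change of -0.75 (adjusted p = 3.25e-10).

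AP-1 factors and other immediate early genes respond within minutes to growth factors and stress. All 20 listed genes were tested, and 13 were higher with BMH-21 (65%, against 31.1% of all genes), 4 lower and 3 not called, with a median of 0.35 centred. As deposited the median was -0.08, with 8 higher and 7 lower (12% and 67.2% of all genes), so the direction of the list depends on the scaling. Atf3, a stress-induced repressor, was at 0.38, 0.60 and 0.69 with BMH-21 and at -1.79, -1.52 and -1.69 with CX-5461, or 1547 to 2231 reads against 339 to 443. The difference was 2.23 ± 0.10 (1.80 as deposited). At 4 h the levels had been -0.36 and -0.74, from -3.78 in untreated cells, a difference of 0.38 that grew by 1.85 (adjusted p = 7.9e-11). Fos was at 0.21, 0.22 and 0.29 against -1.03, -1.14 and -1.07, a difference of 1.32 ± 0.06. Nr4a1, an orphan nuclear receptor, was lower with BMH-21 by -0.74 ± 0.04. Egr3 was also lower, by -1.03 ± 0.29, from 30 to 48 reads against 60 to 90. With log2 values below 0 set to 0, its difference was -0.26 and not called (adjusted p = 0.0582). The AP-1 motif TGANTCA was in 8.07% of the 905 promoters of genes at least 2-fold higher with BMH-21, in 4.93% of the 426 at least 2-fold lower and in 4.35% of all 11000, counted on both strands over the 250 bases before the start. The ETS motif CCGGAAG was in 5.19%, 3.99% and 13.0% of the same sets. These shares are descriptions of letters, and no test was run on them.

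The rRNA precursor itself could be read only through Rn45s, which poly(A) selection should largely remove. Rn45s had levels of 7.11, 7.41 and 7.02 with BMH-21 and of 7.91, 8.61 and 6.83 with CX-5461. The groups overlapped, the CX-5461 replicates spread over 124192 to 499288 reads, and the difference of -0.60 ± 0.35 was not called (adjusted p = 0.122). As deposited the difference was -1.03 and called (adjusted p = 1.11e-07), although the groups overlapped there too. The fit on that scale took the spread mostly from other genes (prior degrees of freedom 111.5, residual 14). Its p-value therefore says little about the spread of Rn45s itself. Centred without CX-5461 replicate 3 the difference was -1.08 (adjusted p = 0.00547).

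Among 20 genes of the RNA polymerase I machinery 11 were lower with BMH-21 (55%, against 40.6% of all genes), 3 higher (15%, against 31.1%) and 6 not called. The median was -0.18 centred and -0.61 as deposited. At 4 h 1 was lower (5%, against 18.5% of all genes) and 10 were higher (50%, against 27.4%). As deposited the 4 h counts were 1 lower and 3 higher, against 8.49% and 9.35% of all genes. Ubtf, the factor that keeps rDNA open, was at 2.54, 2.47 and 2.32 with BMH-21 and at 3.71, 3.70 and 3.75 with CX-5461, a difference of -1.28 ± 0.05. Untreated cells stood at 4.39, above both groups. Znrd1, a small subunit of the polymerase, differed by -0.65 ± 0.07. Polr1a, which encodes the catalytic subunit, lay on the other side at 0.50 ± 0.05 (0.08 and not called as deposited). Its transcript was at 4.03, 3.88 and 4.07 with BMH-21, 3.45, 3.58 and 3.45 with CX-5461 and 3.72 on average before treatment.

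Ribosome assembly and nucleolar proteins showed 38 of 50 genes lower with BMH-21 (76%, against 40.6% of all genes), 5 higher and 7 not called. The median was -0.31 centred and -0.74 as deposited, where 47 were lower and 0 higher (67.2% and 12% of all genes). At 4 h 9 were lower (18%, against 18.5% of all genes) and 25 higher (50%, against 27.4%), with a median of 0.08. As deposited 3 were lower and 5 higher at 4 h, against 8.49% and 9.35% of all genes. Nop2, an rRNA methyltransferase, was at 2.50, 2.52 and 2.46 against 3.33, 3.38 and 3.33, a difference of -0.86 ± 0.04, and Imp3, a protein of the small subunit processome, differed by -0.77 ± 0.07. Against untreated cells the median of the list was -0.86 for BMH-21 and -0.54 for CX-5461. Of 77 tested cytosolic ribosomal protein genes 69 were not called, 5 were higher and 3 lower, and the median was 0.02 centred; as deposited 76 of the 77 were called lower with a median of -0.40, close to the shift of all genes. Without BMH-21 replicate 2, 1 was higher and 19 were lower, with a median of -0.07. Ribosomal protein genes have many processed pseudogenes, which can take or lend reads.

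CX-5461 has been linked to topoisomerases, and 29 genes for topoisomerases and double-strand break repair were tested. There were 12 lower (41.4%, close to the 40.6% of all genes), 7 higher and 10 not called, with medians of -0.04 centred and -0.47 as deposited. Top2a, the topoisomerase of dividing cells, was at 5.13, 4.93 and 5.02 with BMH-21 and at 5.46, 5.50 and 5.41 with CX-5461, a difference of -0.43 ± 0.05, opposite to the 0.33 of 4 h. Its paralogue Top2b differed by 0.22 ± 0.05 centred and -0.21, not called, as deposited. Chek2, a checkpoint kinase, was higher with BMH-21 by 0.94 ± 0.05, and Xrcc4, an end-joining factor, lower by -0.77 ± 0.11. Among P-TEFb and elongation factors (20 tested) 11 were lower (55%), 4 higher (20%) and 5 not called, against 40.6% lower and 31.1% higher of all genes. Their median was -0.17 centred and -0.59 as deposited. Hexim2, an inhibitor of P-TEFb, differed by -0.80 ± 0.08, Aff4, a scaffold of the super elongation complex, by -0.71 ± 0.08, and Ell by 0.64 ± 0.04 in the other direction (0.21 and not called as deposited).

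Of 28 DNA replication genes 22 were lower with BMH-21 (78.6%, against 40.6% of all genes and 67.2% as deposited), with 4 higher and 2 not called and a median of -0.27 centred and -0.69 as deposited. Ccne1, the cyclin of S phase entry, was at 3.10, 3.23 and 3.00 against 4.14, 4.15 and 4.10, a difference of -1.02 ± 0.04. Pcna, the replication clamp, differed by -0.69 ± 0.05. Neither had differed at 4 h past the threshold (0.03 each). Rrm2, a ribonucleotide reductase subunit, was on the other side at 0.31 ± 0.03 centred and at -0.11, not called, as deposited. G2 and mitosis genes (24 tested) had 11 higher (45.8%, against 31.1% of all genes), 5 lower (20.8%, against 40.6%) and 8 not called. Their median was 0.07 centred and -0.36 as deposited, where 0 were higher and 17 lower (12% and 67.2% of all genes). At 4 h 21 were higher (87.5%, against 27.4% of all genes) and 0 lower, with a median of 0.41. As deposited 18 were higher and 0 lower at 4 h, against 9.35% and 8.49% of all genes. Bub1b, a spindle checkpoint kinase, differed by 0.42 ± 0.04 centred and 0.00 as deposited, and Kif20a, a kinesin, by -0.39 ± 0.04.

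Among lists of stress responses, ATF4 targets (22 tested) had 10 higher (45.5%), 9 lower (40.9%) and 3 not called. Of all genes 31.1% were higher and 40.6% lower. The ATF4 list had a median of 0.04 centred and -0.39 as deposited. Ddit3, the stress factor CHOP, was higher with BMH-21 by 1.19 ± 0.10, and Vldlr by 1.09 ± 0.21, while Mthfd2, a folate enzyme, was lower by -0.52 ± 0.04. Cholesterol synthesis genes (21 tested) had 14 lower (66.7%), 3 higher (14.3%) and 4 not called. Without BMH-21 replicate 2, 10 were lower and 2 higher. The median was -0.17 centred and -0.60 as deposited. Heat shock proteins (14 tested) had 8 lower (57.1%), 2 higher (14.3%) and 4 not called, median -0.24 centred and -0.67 as deposited. The co-chaperone genes parted, with Bag3 at -0.92 ± 0.05 and Dnajb1 at 0.77 ± 0.04. NRF2 antioxidant genes (11 tested) had 5 lower (45.5%), 4 higher (36.4%) and 2 not called, shares close to those of all genes. Their median was 0.01 centred and -0.42 as deposited, and Gclm, a glutathione synthesis subunit, was lower by -0.63 ± 0.04. The 11 mitochondrially encoded transcripts of the list were not analysed here.

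Keratins (10 of 11 tested) had 4 higher (40%), 4 lower (40%) and 2 not called, against 31.1% higher and 40.6% lower of all genes. Their median was -0.08 centred and -0.50 as deposited. Krt15 (2.12 ± 0.21) and Krt7 (1.60 ± 0.08) joined Krt5 on the BMH-21 side. Krt17 was lower at -1.48 ± 0.07, with levels of -1.48, -1.42 and -1.63 against -0.02, -0.04 and -0.04, close to the untreated -0.26 with CX-5461. Krt7 also belongs to the trophoblast list. Of that list 8 of 11 were tested, with 5 higher (62.5%), 1 lower (12.5%) and 2 not called, a median of 0.54 centred and 0.11 as deposited. Its summed level was 3.40 to 3.45 with BMH-21, 2.75 to 2.89 with CX-5461 and 2.18 to 2.22 in untreated cells. Most reads in this sum came from Tfap2c (7655 to 8959 with BMH-21, 5337 to 5999 with CX-5461) and Krt7 (2805 to 4413 and 967 to 1149). Gata3, a trophoblast factor, differed by 1.13 ± 0.19 and Eomes, another, by -1.54 ± 0.14, and the placental hormone gene Prl3d1 had 0 to 2 reads in every library at 8 h. Primitive endoderm markers (9 of 12 tested) had 4 higher (44.4%), 3 lower (33.3%) and 2 not called (median 0.10 centred, -0.33 as deposited). Their summed level was 3.92 to 4.04 against 3.89 to 3.91 and 3.95 to 4.07 untreated. Pdgfra, a receptor of that lineage, differed by 1.51 ± 0.11, Sox7, a SOX factor, by -0.84 ± 0.14, and Ttr had 0 to 3 reads. Fibroblast markers (6 of 10 tested) had 3 higher (50%), 2 lower (33.3%) and 1 not called (median 0.25 centred, -0.18 as deposited). Their summed level was 4.00 to 4.15 against 3.48 to 3.55 and 3.47 to 3.54 untreated. Vim held most of its reads, 15386 to 21517 against 9973 to 11795, while Col1a2 had 77 to 104 against 73 to 105. Col1a1, a collagen, differed by 1.05 ± 0.09 and Thy1, a surface glycoprotein, by -0.85 ± 0.05, while Lum had 0 to 2 reads and Dcn 3 to 6. In bulk RNA, more cells of a type and more RNA per cell cannot be told apart, and what part these marker genes play in the differences above was not tested.

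**Figure D5:**
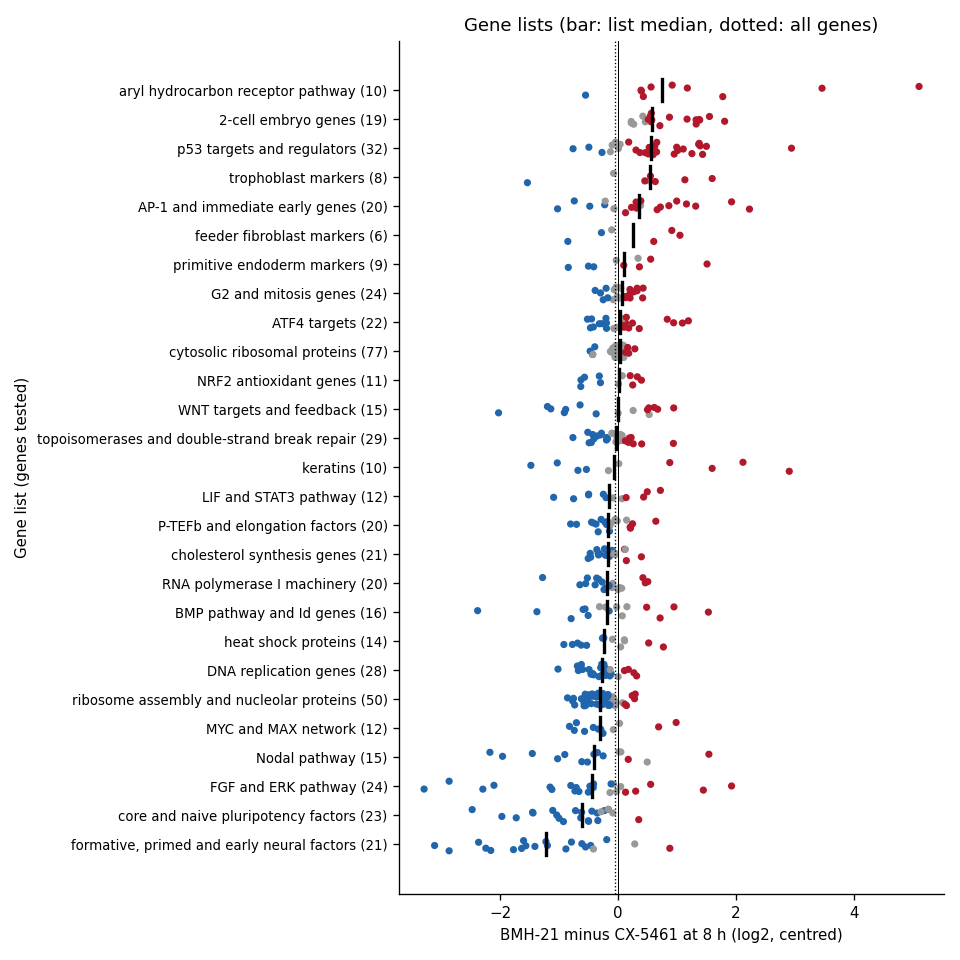
Centred log2 difference between BMH-21 and CX-5461 at 8 h (x axis) of the tested members of 27 gene lists (y axis, genes tested in brackets), ordered by list median; red and blue points are genes called higher and lower with BMH-21, grey points were not called, black bars are list medians and the dotted line is the median of all genes. The AHR list lies highest with a median of 0.74 and the formative, primed and early neural list lowest with -1.22, and ribosomal protein genes lie close to 0.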

How the data were processed

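The deposited table held log2 expression values of 20900 genes in 21 libraries of poly(A) RNA, normalized by the authors with a scaling factor per library. Per the submitters' processing notes, the tools named were Trim Galore 0.5.0, TopHat2 2.1.1, R 4.0.5, DESeq2 1.30.1, edgeR 3.32.1 and limma 3.46.0, with build mm10; the counting program and the handling of reads with several matches are not given in the sources used here. Per the labels' protocols, the library kit keeps strand. Taking each library's lowest value to stand for 0 reads with an offset of 0.5, every value gave whole reads to within 1.79e-08, and read numbers in the text come from this step. PCR copies cannot be told from separate molecules.

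Groups came from the sample titles. Genes with a log2 value above 0 in at least 3 libraries were kept, each library was centred on the median of those genes, and limma 3.58.1 in R 4.3.3 fitted 1 mean per group over all 21 libraries with a mean-variance trend. All tests were two-sided with a Benjamini-Hochberg threshold of 0.05. The 4 h difference and the change of the difference from 4 to 8 h were contrasts of the same fit. The fit was tested on simulated data. Named genes were the 10 largest differences in each direction with a mean log2 value of at least 0 and no overlap on either scale, the 3 markers, and up to 6 members per list (1 result under this rule is not reported here); the members and lists were chosen with earlier results of these data known. Alternatives were 3 other scalings, other filters and offsets, other variance models, the replicate number as a block and leaving out each library. Sequences, spans and gene classes are from RefSeq, GRCm38.p6, the same assembly as mm10, where 13973 of the 14666 genes had a span and 11000 a promoter window. Figures were drawn with matplotlib 3.10.9.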

Additional observations from a re-analysis of the deposited data

Results flagged for a closer look

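The difference between the inhibitors was itself compared between 4 and 8 h, with a contrast of 12 libraries in limma. It changed for 8824 of the 14666 genes, and for 90 of the 105 named genes. Some of these were chosen by the size of their 8 h difference, which is part of the contrast, so their number is a description only. Values below are the 8 h difference minus the 4 h difference on the centred log2 scale, each with an adjusted p under 0.05, so a positive value means that BMH-21 gained on CX-5461 with time.

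Among the largest 8 h differences, the change was 2.52 for Fank1, 2.46 for Dock8, 2.24 for Zhx2, 2.46 for Mab21l2, 2.16 for Fas, 1.75 for Krt5, 1.84 for Klhl30 and 2.48 for Art4. It was -1.73 for Fgf15, -0.48 for Foxd3, -2.34 for AI118078, -2.74 for Gbp4, -2.28 for Trh, -1.23 for Rnf207, -1.61 for En1, -1.65 for Prdm14, -1.76 for B3galnt1 and -1.19 for Bmp4. In the aryl hydrocarbon receptor list the called changes of named genes were -0.92 for Cyp1a1, -0.53 for Arnt, -2.29 for Ahrr and -0.23 for Nqo1. For Arnt, which was lower with BMH-21, the difference widened. The changes of Ahr, Tiparp and Cyp1a2 were positive and that of Cyp1b1 negative, and none of these was called. Genes of the 2-cell embryo gained: Dux by 1.17, Zscan4a by 1.04, Zscan4b by 1.07, Zscan4c by 1.00, Zscan4d by 0.83 and Zscan4f by 0.88. Of the p53 list, Trp53inp1 changed by 0.86, Pmaip1 by 0.28, Plk3 by 0.14 and Epha2 by -0.45.

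Pluripotency factors changed by -1.59 (Nr5a2), -1.94 (Nr0b1), -0.91 (Nanog), -0.69 (Zfp42), -1.12 (Esrrb), -0.61 (Sall4), -0.33 (Pou5f1), -0.33 (Dppa3) and 0.41 (Klf5). In the formative and neural list the change was -1.35 for Fgf5, -2.12 for Pax8 and 2.62 for Insm1, which moved from lower to higher with BMH-21. FGF pathway genes changed by -2.62 (Fgf17), -0.55 (Spry4), 1.34 (Fosl1) and 1.22 (Fgfr4). Nodal and BMP genes changed by -0.92 (Lefty1), -1.57 (Lefty2), 1.62 (Smad3) and 1.09 (Bmp7). WNT genes changed by -2.02 (Notum), -1.23 (Lef1) and 0.88 (Nkd1). In the LIF list Bcl3 changed by -1.48, Pim1 by 0.88 and Junb by 0.35, and in the MYC network Myc changed by -0.75, Mxd3 by -0.60 and Mxd1 by 0.41. Immediate early genes changed by 1.85 (Atf3), 0.45 (Fos) and -0.63 (Nr4a1).

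For ribosome synthesis the change was -0.82 for Ubtf, -0.72 for Znrd1, 0.31 for Polr1a, -0.53 for Nop2 and -0.24 for Imp3. It was -0.71 for Xrcc4, 0.79 for Chek2, -0.76 for Top2a, -0.56 for Aff4 and 0.51 for Ell. Cell cycle genes changed by -0.50 (Kif20a), -1.05 (Ccne1), -0.72 (Pcna) and 0.20 (Rrm2). Stress genes changed by 0.55 (Ddit3), 1.17 (Vldlr), -0.59 (Mthfd2), -0.83 (Bag3) and -0.73 (Gclm). Among keratins and lineage markers the change was 1.74 for Krt15, 1.27 for Krt7, -1.48 for Krt17, -1.80 for Sox7, 0.94 for Pdgfra, -1.45 for Eomes and -0.91 for Thy1.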

How the results depend on the processing

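Of the 105 named genes, 91 kept their direction and their side of the threshold in every alternative that gave a value. Scaling had the largest effect: as deposited, without centring, 1754 genes were higher and 9861 lower with BMH-21 at 8 h, so that 84.9% of the called genes were lower, against 56.6% centred, 57.9% after quantile normalization and 51.4% with median-ratio factors. Under all 4 scalings 1751 genes were higher and 5330 lower. At 4 h 2617 genes were called as deposited. With a log2 value above 2 required in 3 libraries, 1263 genes were called at 2-fold or more, in place of 1899, from fewer genes tested. On the deposited scale the sign reversed for Klf5 (-0.078), Nodal (-0.41), Top2b (-0.21), Bub1b (-0.0031), Rrm2 (-0.11) and Nqo1 (-0.031). Nodal, near 0 throughout, was also at -0.021 with no filter and between -0.026 and 0.064 when each library was left out; Dppa3 ran from -0.25 to 0.0023. The cause of these changes was not tested. Leaving out each library gave 9844 to 10453 called genes at 8 h.

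Replicate numbers are in the titles, but same-numbered BMH-21 and CX-5461 libraries at 8 h deviated from their group means with correlations of 0.04, 0.02 and 0.05, so the numbers were not taken to pair them. With the replicate number as a block 10439 genes were called, of which 10401 were also called without it, and the block changed no named gene's call. The level of 3 reads, the lowest number read as present, lay between -4.63 and -3.59 on the deposited log2 scale.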

Other observations

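Small nucleolar RNAs, which guide the modification of rRNA and are mostly cut from introns of host genes, were looked at after their values were seen. Of 48 tested genes of this RefSeq class 41 were lower with BMH-21 and 0 higher, against 40.6% and 31.1% of all genes, with a median difference of -0.86 centred and -1.28 as deposited. At 4 h the median was -0.36. Against untreated cells it was -1.30 for BMH-21 and -0.47 for CX-5461. The largest called differences of this class were in Snord65 (-1.79 ± 0.16) and Snord32a (-1.62 ± 0.27). The RNA components of RNase P and RNase MRP, both independent of RNA polymerase II, were also lower, with Rpph1 at -1.68 ± 0.29 and Rmrp at -1.56 ± 0.66. Transcripts without a poly(A) tail enter such libraries only in part, and what part library preparation plays in these values was not tested.

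Differences rose slightly with the length of the gene. In the shortest of 10 bins by genomic span (median 2636 bases, 1400 genes) the median difference was -0.11, and in the longest (median 188266 bases, 1398 genes) 0.05.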
